A study of Mus musculus with 6 samples.

Results

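The genes described here encode enzymes and remodellers that act on chromatin, and the values are the accessibility of their own promoters and gene bodies in adult mouse myonuclei after knockdown of Yap, a coactivator of the Hippo pathway that works through TEAD factors. They are the histone deacetylases Hdac1 to Hdac11, the sirtuins Sirt1 to Sirt7, the histone demethylases (Kdm), methyltransferases (Kmt, Ezh) and acetyltransferases (Kat, Ep300, Crebbp), and the SWI/SNF family genes (Smarc, Arid1a, Arid1b). The members were picked by a rule on the gene symbol that uses no measured value, although earlier results of these data were known by then. Of 49366 promoter windows, 66 belonged to these genes, and Kdm4d matched by name but had no window. A window covers each transcript start of a gene with 1 kb of flank on both sides. In addition, 155 of 36097 accessible regions (peaks) lay at the starts of these genes or within them.

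The samples were myonuclei sorted for the perinuclear protein PCM1 from skeletal muscle of male C57BL/6J mice, with 3 LacZ-shRNA and 3 Yap-shRNA replicates. Each replicate was a pool of 4 gastrocnemius and 4 tibialis anterior muscles. AAV6:LacZ-shRNA, the control vector, and AAV6:Yap-shRNA were given to contralateral muscles at 8 weeks of age, and the muscles were taken 28 days later, so both groups carried an AAV6 vector and a short hairpin RNA. The labels do not say which pools share mice, and p-values measure only the spread between pools. Accessibility was read by ATAC-seq, in which a transposase inserts sequencing adapters into open DNA.

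In muscle, class IIa histone deacetylases bind MEF2 factors at muscle genes, repress them, and leave the nucleus when they are phosphorylated. Acetyltransferases such as Ep300 and Crebbp are coactivators that deposit acetyl groups at enhancers and promoters, and deacetylases and sirtuins remove them. Kmt2 enzymes methylate histone H3 at promoters and enhancers, Ezh1 and Ezh2 are the catalytic subunits of the repressive PRC2 complex, and Kdm enzymes erase methyl marks. SWI/SNF complexes use ATP to slide or evict nucleosomes, and the Smarcd3 subunit (BAF60c) is a partner of the myogenic factor MyoD.

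Sequence is shown first for the regions on which the later results turn. The 3 promoters Kdm5b, Ezh1 and Hdac7 lie in peaks with an unadjusted p under 0.05 (Kdm5b chr1:134559978-134560170 on the plus strand, Ezh1 chr11:101226464-101226663 on the minus strand, Hdac7 chr15:97831768-97831967 on the minus strand). The Hdac5 promoter (chr11:102230173-102230372 on the minus strand) is shown because it holds a MEF2 match. Bases are upstream of the RefSeq start in build GRCm38.p6, written 5′ to 3′ along the gene and outside every annotated exon. Capitals mark GGGCGG (the Sp factor motif) or the MEF2 motif on either strand.
Kdm5b promoter: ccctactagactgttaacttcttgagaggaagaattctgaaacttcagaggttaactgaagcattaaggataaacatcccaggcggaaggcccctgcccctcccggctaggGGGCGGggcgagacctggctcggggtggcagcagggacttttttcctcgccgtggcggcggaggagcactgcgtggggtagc
Ezh1 promoter: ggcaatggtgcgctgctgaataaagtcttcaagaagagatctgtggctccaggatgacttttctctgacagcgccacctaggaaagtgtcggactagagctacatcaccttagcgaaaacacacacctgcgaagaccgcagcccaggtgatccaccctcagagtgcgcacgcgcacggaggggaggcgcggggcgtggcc
Hdac7 promoter: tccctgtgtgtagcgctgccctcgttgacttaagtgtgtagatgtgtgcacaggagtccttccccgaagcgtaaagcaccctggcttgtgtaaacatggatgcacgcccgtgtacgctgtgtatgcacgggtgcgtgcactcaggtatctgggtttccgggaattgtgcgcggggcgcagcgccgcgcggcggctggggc
Hdac5 promoter: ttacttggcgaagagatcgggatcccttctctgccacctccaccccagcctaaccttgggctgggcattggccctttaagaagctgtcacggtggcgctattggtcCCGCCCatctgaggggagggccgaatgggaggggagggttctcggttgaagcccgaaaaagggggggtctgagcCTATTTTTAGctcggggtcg

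The 3 member peaks with the smallest p-values were intronic, 2 in Hdac4 (PK2091, shown for chr1:92044133-92044332, and PK2095, shown for chr1:92130291-92130490) and 1 in Hdac9 (PK11071, central 50 bases at chr12:34072857-34072906). All are plus-strand bases of GRCm38. The capitals in PK2095 mark a match to the TEAD motif ACATTCC, here on the minus strand, on which that stretch is centred.
Hdac4 PK2091: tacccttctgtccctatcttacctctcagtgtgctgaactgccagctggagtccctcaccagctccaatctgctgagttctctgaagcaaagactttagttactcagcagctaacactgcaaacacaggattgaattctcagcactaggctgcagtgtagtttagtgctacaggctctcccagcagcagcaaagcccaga
Hdac4 PK2095: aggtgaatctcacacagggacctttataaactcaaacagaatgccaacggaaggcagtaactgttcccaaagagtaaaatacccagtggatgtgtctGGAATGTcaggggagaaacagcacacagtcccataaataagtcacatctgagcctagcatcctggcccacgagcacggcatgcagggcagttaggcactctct
Hdac9 PK11071 centre: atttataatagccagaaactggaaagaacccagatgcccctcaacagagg

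The promoters of these genes were rich in GC bases and CpG dinucleotides. RefSeq gave 300-base promoters for 54 of the 66 members, 74 in all, with a median GC content of 61.8% against 52.7% over 32851 mouse promoters. The median ratio of observed to expected CpG was 0.82 against 0.38. The Sp motif GGGCGG was present in 67.6% of member promoters and 35.7% of all promoters. The ETS motif CCGGAAG was present in 13.5% against 8.86%, and the NRF1 motif GCATGCGC in 8.11% (6 promoters) against 2.71%. The AP-1 motif TGANTCA was found in 13.5% against 7.81%. Matches to MEF2 were at 4.05% against 3.19%, in Hdac5, Kdm4c and Kdm5d. TEAD ACATTCC was found in 1.35% against 3.85%, a single promoter, that of Hdac8. All motifs were searched on both strands, matches of different motifs may overlap, and a match is a description of letters in this window only.

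Depth and cell type were examined for the whole series. Window counts totalled 3326803 to 10319467 per sample and peak counts 2588520 to 6871176, with LacZ-shRNA replicates 1 and 2 the shallowest. Of 14 muscle fibre markers, 12 lay above the median of protein-coding windows, with a median of 22.2 CPM per kb and 65.4 for Atp2a1, the calcium pump of fast fibres. The medians of the satellite cell, fibroblast, endothelial, leukocyte, mural and Schwann lists were 3.87 to 6.42 CPM per kb. The highest single gene of those lists was Cdh15 of the satellite cell list, at 19.0 CPM per kb. Summed over their windows, the 6 fibroblast markers held 136.9 to 145.6 CPM in LacZ-shRNA and 144.3 to 170.2 CPM in Yap-shRNA, the 6 leukocyte markers 115.5 to 129.8 CPM against 129.2 to 139.1 CPM, and the 14 muscle fibre markers 1863 to 2630 CPM against 2025 to 2333 CPM. None of these markers was called, and their part in the results was not tested. At an unadjusted p under 0.05 (edgeR) there were 2 of 6 fibroblast, 2 of 6 endothelial, 1 of 6 leukocyte and 1 of 5 satellite cell markers. The muscle fibre, mural and Schwann lists had 0, and the share over all windows was 4.9%. In sorted nuclei that were pooled, a change in the mix of nuclei and a change within them cannot be told apart. One line of the submitters' text names cardiomyocytes, whereas the sample labels name skeletal muscle. The Yap1 window itself held 12.1, 16.7 and 14.1 CPM in LacZ-shRNA and 14.7, 16.5 and 12.1 CPM in Yap-shRNA (log2 fold change 0.039, SE 0.18, edgeR adjusted p 0.99), and since a short hairpin acts on RNA, that window does not check the knockdown.

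Promoters of chromatin regulators were among the more open of the coding genes, although the levels spanned a wide range. Levels between genes are control (LacZ-shRNA) means in CPM, counts scaled by library size with TMM factors, per kb of window. The median of the 66 members was 7.23 CPM per kb, against 5.68 for 20540 protein-coding windows, and 47 members lay above that coding median. In all, 28 members (42.4%) exceeded the coding upper quartile of 8.23 CPM per kb. The highest by window was Smarca4 (BRG1), an ATPase of SWI/SNF, at 19.1 ± 2.3 CPM per kb (SD, n = 3). It was followed by Kat6a, a MYST family acetyltransferase, at 18.1 ± 3.2, Kdm4b, a demethylase of H3 lysine 9, at 16.6 ± 2.4, and Kmt5a, which monomethylates H4 lysine 20, at 16.6 ± 3.2 (SD, n = 3 each). The lowest was the Y-linked demethylase Kdm5d at 1.42 ± 0.11 CPM per kb (SD, n = 3).

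Most steps in this order were smaller than the spread between replicates. Of 65 pairs of neighbours, only 1, Kdm4c above Kdm5d, differed by more than the SDs of its members. The lower end of the order also held Kdm5a (2.99), the mitochondrial deacetylase Sirt3 (3.10), Ep300 (3.31), Smarca1, an ISWI ATPase (3.42), and Kmt2c (3.44 CPM per kb). Members that share bases with the window of another gene had a lower median than the others, 6.04 against 9.07 CPM per kb. Such windows numbered 29 of 66 (43.9%, against 21% of all windows), and reads in shared bases may not have been counted. In controls, the promoter peaks of Kmt2c, Ep300, Sirt3 and Kdm5a held 101.9, 79.9, 32.1 and 33.4 CPM. Their whole windows held 34.7, 49.4, 17.3 and 32.0 CPM, although peak and window CPM are scaled by different totals. By peak, Ep300 (43.2 CPM per kb) and Kmt2c (36.6) lay above the median promoter peak of 28.5. Sirt3 (24.8) and Kdm5a (20.3) lay below it. Window levels of Ep300, Kdm5a, Sirt3 and Kmt2c are therefore uncertain. Their promoter peaks are among the 21 of 76 that lie within 1 kb of another gene's start, so the peak levels may not be theirs alone. Window widths ran from 2293 to 36807 bp, with a median of 7623 bp against 4002 bp for protein-coding genes. A level per kb of window averages over all annotated starts of a gene. Smarca2, with 42 starts, was at 6.065 CPM per kb by window and at 31.3 and 17.45 by promoter peak. Hdac4 was at 11.2 by window, but at 52.2 in its promoter peak PK2096, against 50.9 in that of Smarca4. The order by window is therefore not the order by peak.

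**Figure D1:**
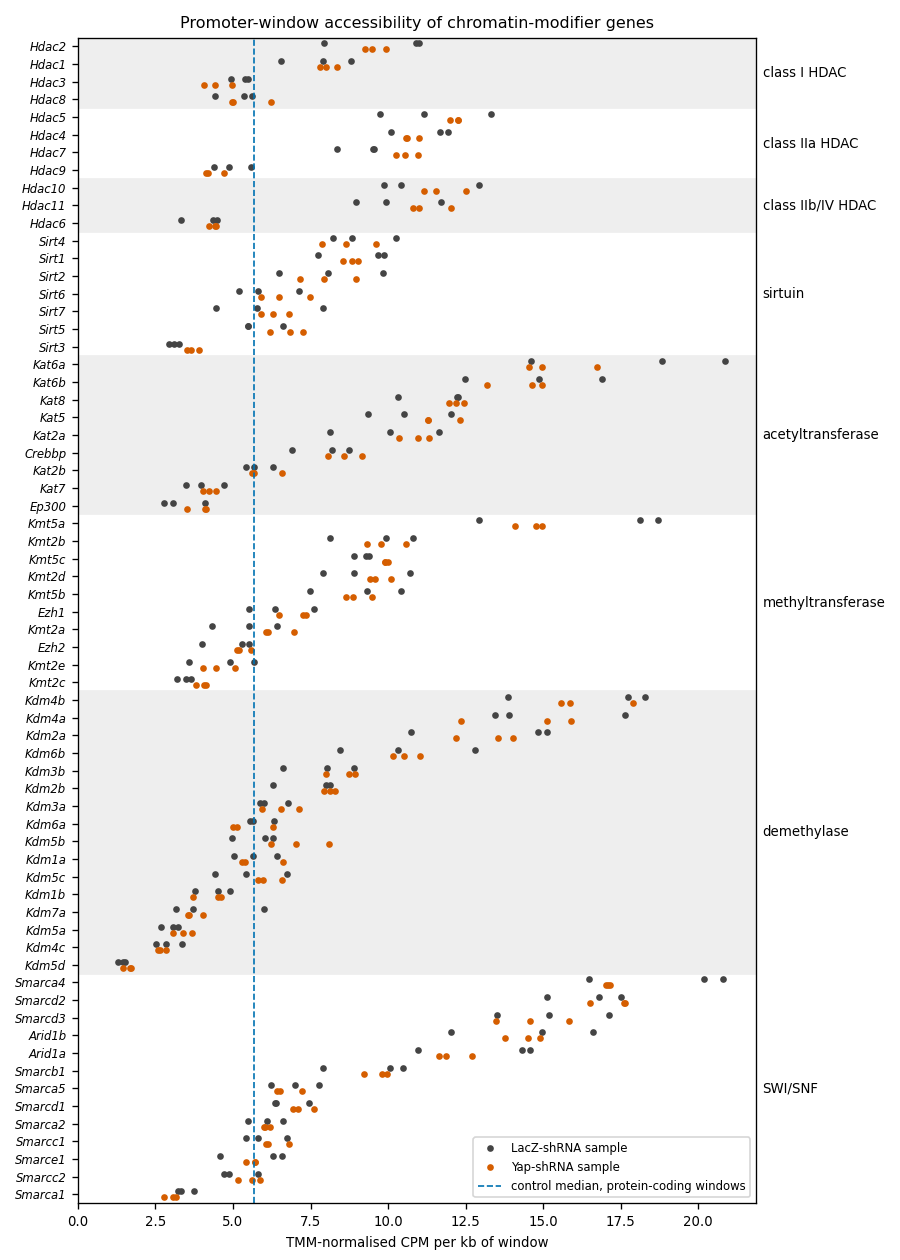
Accessibility of the 66 promoter windows in each sample, in TMM-normalised CPM per kb of window, grouped by role and ordered by the control mean (black, LacZ-shRNA; orange, Yap-shRNA; dashed line, control median of protein-coding windows at 5.68). Levels run from Kdm5d at 1.42 to Smarca4 at 19.1 CPM per kb, and the 2 groups overlap in most genes.

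Sex-linked members had lower levels than autosomal members as a group. The 6 members on X or Y (Hdac6, Hdac8, Kdm5c, Kdm6a, Smarca1 and Kdm5d) had a median of 4.59 CPM per kb, from 1.42 to 5.85, against 7.89 for the 60 autosomal members. Of the autosomal members, 42 lay above the highest sex-linked one, Kdm6a (UTX), a demethylase of H3 lysine 27. Over protein-coding windows the medians were 2.51 CPM per kb on X and 5.84 CPM per kb on autosomes. The mice were male, with a single X. Levels in CPM per kb are not corrected for copy number, so they do not compare how open each copy was.

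The first comparison asked whether knockdown of Yap changed accessibility at these promoters. No member passed an adjusted p under 0.05 in the edgeR quasi-likelihood test over all windows, in which 0.0223% of windows passed. The log2 fold changes (Yap-shRNA against LacZ-shRNA) ran from -0.23 to 0.30, with SEs from 0.13 to 0.21. At an unadjusted p under 0.05, 1 member was higher, where 1.9% of all windows were, and none was lower, where 3.01% of all windows were. The 2 groups did not overlap in 5 members (background 10.1%), namely Hdac7, Kmt2c, Kmt5c and Sirt3, higher in Yap-shRNA, and Smarca1, lower. In 40 of 66 members the fold change was positive, with a median of 0.064 against -0.014 over all windows.

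The sign of that median depended on 1 control library. LacZ-shRNA replicate 1 was the lowest of the control samples in 58 members (87.9%), compared with 73.8% of the protein-coding windows above the coding median and 37.7% of all windows. Without it, 23 of 66 members had a positive fold change, the median was -0.031, and at an unadjusted p under 0.05 none was higher and 5 were lower. Over all windows in that fit the median was 0.0036, with 2.64% higher and 4.27% lower at that threshold. Those 5 were Kat6a (-0.38, adjusted p 0.106), Kmt5a (-0.34, adjusted p 0.109), Smarca4 (-0.27, adjusted p 0.471), Arid1a (-0.26, adjusted p 0.452) and Hdac3 (-0.28, adjusted p 0.711). Scaling by library size alone moved the median the other way, to 0.129, with that of all windows at 0.046. The control samples also varied more than the others, with a median coefficient of variation of 13.9% against 6.3% over the Yap-shRNA samples.

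**Figure D2:**
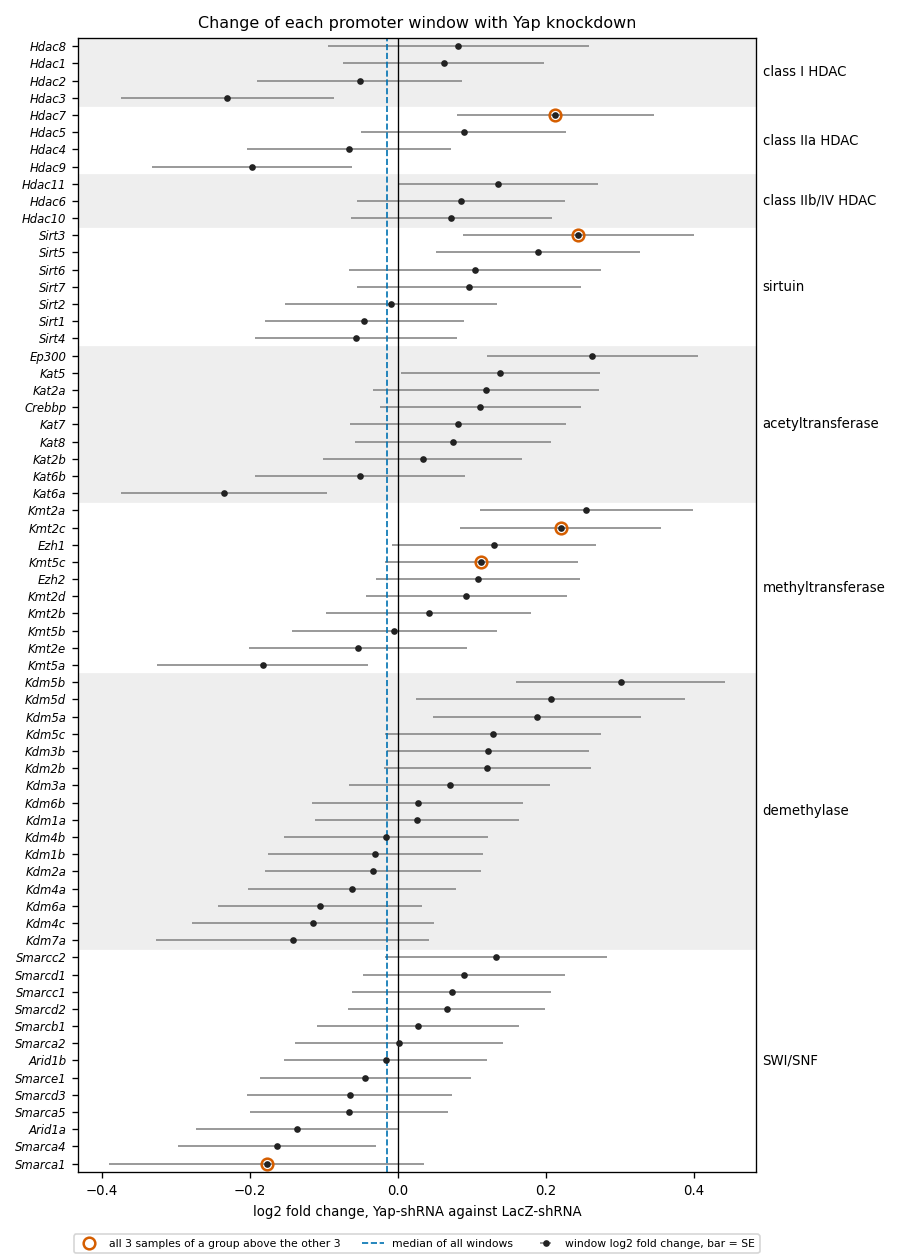
Log2 fold change of each promoter window with its SE, by role (Yap-shRNA against LacZ-shRNA; orange rings, windows whose groups do not overlap; dashed line, median of all windows at -0.014). Values lie between -0.23 and 0.30 and no window passed the adjusted threshold.

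Among class I deacetylases, the ubiquitous nuclear enzymes, no window passed the test. Hdac3, the catalytic subunit of the NCoR and SMRT corepressor complexes, held 28.0, 31.1 and 30.6 CPM in LacZ-shRNA and 28.2, 25.0 and 23.1 CPM in Yap-shRNA (log2 fold change -0.23, SE 0.14, edgeR adjusted p 0.946). One Yap-shRNA sample lay within the control range, and the window shares bases with another. Of its 2 promoter peaks, PK21176 was at -0.00051 (SE 0.13). The other, PK21175, held 13.4, 14.9 and 13.6 CPM against 12.1, 13.3 and 9.43 CPM, without overlap of the groups (-0.24, SE 0.20, edgeR adjusted p 0.819). The paralogs Hdac1 (0.062, SE 0.14) and Hdac2 (-0.052, SE 0.14), the subunits of Sin3 and NuRD complexes, and the X-linked Hdac8 (0.081, SE 0.18) lay within 1 SE of 0.

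None of the 4 class IIa deacetylases, the MEF2 partners, passed the test, and 2 fold changes were positive and 2 negative. Hdac7 held 91.9, 105.1 and 104.5 CPM in LacZ-shRNA and 112.6, 116.1 and 120.4 CPM in Yap-shRNA, and the groups did not overlap (0.21, SE 0.13, edgeR adjusted p 0.946). Hdac9 held 59.0, 46.5 and 51.6 CPM in controls and 43.6, 49.7 and 44.4 CPM after knockdown, with overlap (-0.20, SE 0.14, adjusted p 0.949). Hdac5 (0.089, SE 0.14) and Hdac4 (-0.066, SE 0.14), which respond to motor nerve activity, were among the more open members at 11.4 and 11.2 CPM per kb, and Hdac9 was the least open of the class at 4.95.

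Class IIb and IV members were all positive but within 1 SE of 0. Hdac11, the class IV enzyme, had a log2 fold change of 0.13 (SE 0.14), the tubulin deacetylase Hdac6 0.085 (SE 0.14) and the polyamine deacetylase Hdac10 0.072 (SE 0.14). Hdac10 was the most open of the 3 at 11.1 CPM per kb and Hdac6 the least at 4.05.

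Of the sirtuins, which use NAD, the mitochondrial Sirt3 showed the largest difference by window. It held 16.5, 17.3 and 18.2 CPM in LacZ-shRNA against 21.8, 20.4 and 19.6 CPM in Yap-shRNA (0.24, SE 0.16, edgeR adjusted p 0.946), so that every Yap-shRNA sample was above every control. The window overlaps that of another gene, and the promoter peak has the start of Psmd13 within 1 kb. At the Sirt3 promoter peak PK36485 the groups overlapped, with 29.3, 34.0 and 33.0 CPM against 33.4, 37.5 and 35.6 CPM (0.15, SE 0.13, edgeR adjusted p 0.840). Sirt5, a mitochondrial desuccinylase, was at 34.0, 34.0 and 40.9 CPM against 38.4, 42.3 and 44.9 CPM (0.19, SE 0.14, adjusted p 0.949). The windows of Sirt7 (0.096), Sirt4 (-0.056) and the nuclear regulator of oxidative metabolism Sirt1 (-0.045) each lay within 1 SE of 0. The Sirt7 window overlaps 2 others. Its promoter peak PK10442, described below, was at 0.38 (SE 0.13, edgeR adjusted p 0.268), without overlap of the groups. Sirt4 was the most open sirtuin at 9.11 CPM per kb, next to Sirt1 at 9.09.

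Acetyltransferases held the member with the most negative fold change and one of the most positive. Ep300, the p300 coactivator, held 41.4, 60.9 and 45.8 CPM in controls and 60.9, 52.4 and 61.7 CPM after knockdown (0.26, SE 0.14, edgeR adjusted p 0.946), and the groups overlapped. Kat6a held 58.6, 75.6 and 83.8 CPM in controls and 67.2, 58.5 and 60.04 CPM after knockdown (-0.23, SE 0.14, adjusted p 0.946). In each gene it was LacZ-shRNA replicate 1 that lay lowest among the controls. The Ep300 window overlaps 2 others, and its promoter peak, which lies within 1 kb of the starts of 2 other genes, was at -0.013 on the log2 scale. Kat5 (TIP60, 0.14), Crebbp (CBP, the paralog of p300, 0.11) and Kat2b (PCAF, a coactivator of MyoD, 0.034) did not pass the test.

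Methyltransferase windows had positive fold changes in 7 of 10 (median 0.10), whereas their peaks did in 5 of 15 (median -0.072). Kmt2a (MLL1) held 27.9, 41.3 and 35.4 CPM in LacZ-shRNA and 39.1, 39.5 and 44.9 CPM in Yap-shRNA (0.25, SE 0.14, edgeR adjusted p 0.946). Kmt2c (MLL3), which marks enhancers, held 32.2, 36.9 and 35.1 CPM against 40.9, 38.3 and 41.7 CPM, without overlap of the groups (0.22, SE 0.14, adjusted p 0.946). Both windows share bases with another gene. Their promoter peaks had fold changes of the other sign, at -0.059 (PK39048, SE 0.13) for Kmt2a and -0.072 (PK30276, SE 0.13) for Kmt2c. Both peaks also lie within 1 kb of the start of another gene. Kmt5a had a negative fold change, at 113.4, 158.9 and 163.9 CPM against 131.1, 123.5 and 129.6 CPM (-0.18, SE 0.14, adjusted p 0.949). The PRC2 enzymes Ezh1 (0.13, SE 0.14), the form that adult muscle keeps, and Ezh2 (0.11, SE 0.14), the form of dividing cells, were at 6.48 and 4.94 CPM per kb.

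The demethylase Kdm5b, which removes methyl groups from H3 lysine 4, had the smallest p-value of all members. It held 34.5, 42.0 and 43.9 CPM in LacZ-shRNA and 49.0, 43.4 and 56.3 CPM in Yap-shRNA, a difference of 0.30 on the log2 scale (SE 0.14, unadjusted p 0.039 and adjusted p 0.946 by edgeR). One Yap-shRNA sample lay below the highest control. Its relatives Kdm5d (0.21, SE 0.18) and Kdm5a (0.19, SE 0.14) were also positive without passing the test. Kdm6a (-0.11, SE 0.14), Kdm1a (LSD1, 0.026, SE 0.14) and Kdm4b (-0.016, SE 0.14) lay within 1 SE of 0.

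Windows of the SWI/SNF family genes, a group by symbol that also holds ISWI ATPases such as Smarca1, were split. In all, 6 of 13 were positive, with a median of -0.016. Smarca4 held 67.5, 82.7 and 85.2 CPM in LacZ-shRNA and 70.0, 69.8 and 70.3 CPM in Yap-shRNA (-0.16, SE 0.13, edgeR adjusted p 0.951). The 3 Yap-shRNA samples were nearly equal and lay between control replicate 1 and the other two. Arid1a, the subunit that defines canonical BAF complexes, was at 91.9, 122.1 and 119.8 CPM against 106.5, 99.3 and 97.5 CPM (-0.14, SE 0.14, adjusted p 0.956), with the same arrangement. Smarca1 had lower values without overlap, at 8.32, 9.61 and 8.54 CPM against 7.13, 7.91 and 8.11 CPM (-0.18, SE 0.21, adjusted p 0.962). Smarcc2, a core scaffold subunit, was at 0.13 (SE 0.15) and Smarcd3 at -0.065 (SE 0.14).

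Peaks give a finer view than windows, since each is 1 accessible region. Of the 155 member peaks, 76 lay within 1 kb of an annotated start of their gene and 79 in the gene body, 63 of them in introns and 16 in exons. A promoter peak was found for 62 members. Hdac8, Kdm5d and Smarca1, all on X or Y, had no peak, and Smarcd3 had 2 intronic peaks but none at a start, although its window held 15.3 CPM per kb. Gene-body peaks were found in 25 members, and Hdac9 (17), Arid1b (15) and Hdac4 (12) held 44 of the 79 (55.7%). These are long genes, of 869.5, 353.3 and 266.9 kb, and per 100 kb the peaks numbered 1.96, 4.25 and 4.50.

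The most open promoter peaks belonged to Kdm1b, a second LSD1-type demethylase (63.5 CPM per kb), and Kat6b, the paralog of Kat6a (61.2 CPM per kb). The Kdm1b window, which shares bases with another, was at only 4.39 CPM per kb. The Kdm1b peak has the start of Tpmt within 1 kb, so its level may not be that of Kdm1b alone. The median promoter peak lay at 28.5 CPM per kb, at the 81.2 percentile of all peaks, and the median gene-body peak at 22.0. Exact TEAD matches were present in 18 member peaks (11.6%, against 8.96% of all peaks) in 14 genes, 4 of them in Hdac4. Member peaks were wider, with a median of 1235 bp against 902 bp over all peaks, and so had more room for a match. In the central 300 bases the shares were 2.58% against 2.17% for TEAD, 3.87% against 3.96% for MEF2 and 5.81% against 5.2% for AP-1.

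No member peak passed an adjusted p under 0.05 (edgeR quasi-likelihood test, background 0.618%), and the median log2 fold change was 0.021 against -0.0026 over all peaks. At an unadjusted p under 0.05, 8 were higher (background 3.59%) and 5 were lower (background 5.31%). The groups did not overlap in 24 of 155 (background 13.3%). Of the 10 peaks with the smallest p-values, 6 lay in class IIa deacetylase genes, which hold 38 of the 155 peaks.

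**Figure D3:**
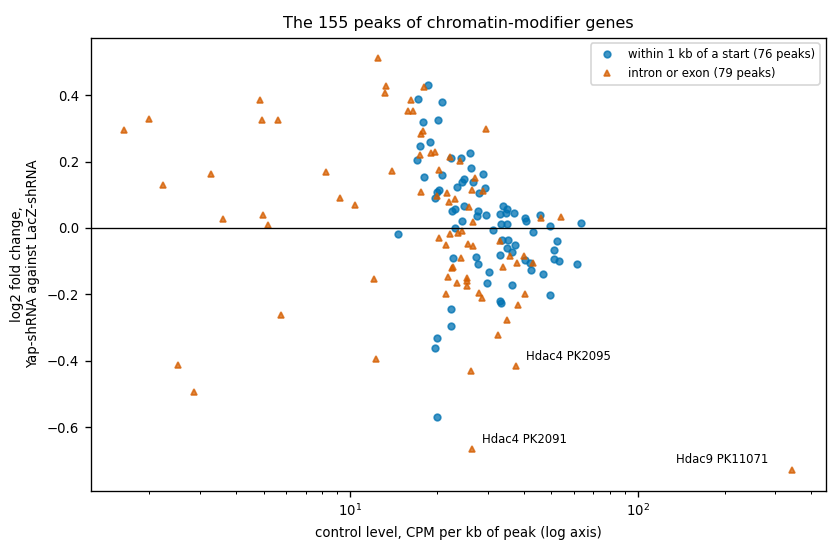
Log2 fold change of the 155 member peaks against their control level in CPM per kb of peak, on a log axis (circles, peaks at a start; triangles, peaks in introns or exons). The Hdac9 peak PK11071 stands alone at 343.2 CPM per kb, and the Hdac4 peaks PK2091 and PK2095 are the next by p-value.

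The largest difference was at the Hdac9 intronic peak PK11071 (chr12:34071763-34074002), 363305 bp from the nearest start of the gene. It held 750.5, 887.8 and 667.7 CPM in LacZ-shRNA and 437.6, 417.6 and 535.1 CPM in Yap-shRNA, a difference of -0.73 on the log2 scale (SE 0.19, adjusted p 0.058 by edgeR). All Yap-shRNA samples were below all controls. It passed the threshold under 3 alternatives, with an adjusted p of 0.000358 by the likelihood-ratio test, 1.29e-05 by DESeq2 and 0.00527 without LacZ-shRNA replicate 3. It did not pass under the others, where the adjusted p reached 0.612 without Yap-shRNA replicate 2, and over all alternatives the log2 fold change ran from -0.86 to -0.58. This region is not typical of the gene. It was 97.1% masked as repeat, its level lay at the 99.79 percentile of all peaks and 14.1 times the median member peak, and the 50 central bases printed above occur 2899 times exactly in the genome. The other Hdac9 peaks held 2.10 to 12.99 CPM in controls. The methods state a minimum mapping quality for counts over whole genes, but not whether it held for windows and peaks, and the counts cannot show which copy the reads came from.

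The 2 intronic Hdac4 peaks lay in sequence found once in the genome over their central 50 bases. PK2091 (chr1:92043936-92044530), 37076 bp from the nearest start, held 12.6, 16.6 and 18.3 CPM in LacZ-shRNA and 10.7, 10.28 and 9.26 CPM in Yap-shRNA (-0.67, SE 0.20, edgeR adjusted p 0.133). PK2095 (chr1:92129813-92131246), 16482 bp from the nearest start and with 2 TEAD matches, held 48.2, 55.6 and 58.8 CPM against 36.9, 40.9 and 44.8 CPM (-0.42, SE 0.13, adjusted p 0.150). In both, every Yap-shRNA sample was below every control. The other Hdac4 peaks with a TEAD match were at -0.11 (PK2093), 0.11 (PK2089) and -0.091 (PK2097). Of the 18 member peaks with a TEAD match, 10 had positive and 8 had negative fold changes, with a median of 0.027. Over all peaks with a match the median was -0.021, and a part of TEAD in these changes was not tested. The 12 gene-body peaks of Hdac4 ran from -0.67 to 0.30 in log2 fold change, and PK2096, one of 2 promoter peaks, which is among the most open at 52.2 CPM per kb, was at -0.039.

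Of the other Hdac9 peaks, the promoter peak PK11089 had lower values, at 15.3, 12.7 and 10.9 CPM against 7.20, 10.28 and 8.27 CPM (-0.57, SE 0.22, edgeR adjusted p 0.373). The intronic peak PK11079 had higher values, at 11.5, 11.9 and 14.3 CPM against 20.6, 16.7 and 14.4 CPM (0.43, SE 0.19, adjusted p 0.461). The groups did not overlap in either, so regions of the same gene lay on opposite sides of 0. Of the 12 member peaks at least 90% masked, 9 were in Hdac9.

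Higher values were found at 2 Hdac7 peaks. The intronic PK17570 held 19.2, 20.8 and 24.5 CPM in LacZ-shRNA and 25.9, 33.1 and 26.6 CPM in Yap-shRNA (0.39, SE 0.15, edgeR adjusted p 0.373). The promoter peak PK17571 held 34.0, 31.0 and 34.3 CPM against 37.6, 47.4 and 39.9 CPM (0.32, SE 0.13, adjusted p 0.410). Neither overlapped between groups, as in the Hdac7 window, which holds the promoter peak and shares its reads.

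The other 4 of the 10 peaks had higher values after knockdown, without passing the adjusted threshold. At the Sirt7 promoter, PK10442 held 29.6, 39.5 and 33.3 CPM in LacZ-shRNA and 41.6, 45.3 and 44.5 CPM in Yap-shRNA (0.38, SE 0.13, edgeR adjusted p 0.268), and it includes a TEAD match and has the start of Mir6936 within 1 kb. At the Kdm5b promoter, PK3085 held 24.1, 23.4 and 32.1 CPM against 36.9, 32.1 and 38.5 CPM (0.39, SE 0.14, adjusted p 0.317). At the Ezh1 promoter, PK9928 held 13.4, 13.2 and 16.4 CPM against 20.2, 19.3 and 19.9 CPM, with no overlap of the groups (0.43, SE 0.17, adjusted p 0.376). A peak that overlaps the last exon bases of Hdac10, PK17419, was at 21.4, 18.3 and 19.9 CPM against 24.3, 24.6 and 31.8 CPM (0.42, SE 0.16, adjusted p 0.314). Its centre lies outside Hdac10, and it is within 1 kb of the start of Tubgcp6.

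**Figure D4:**
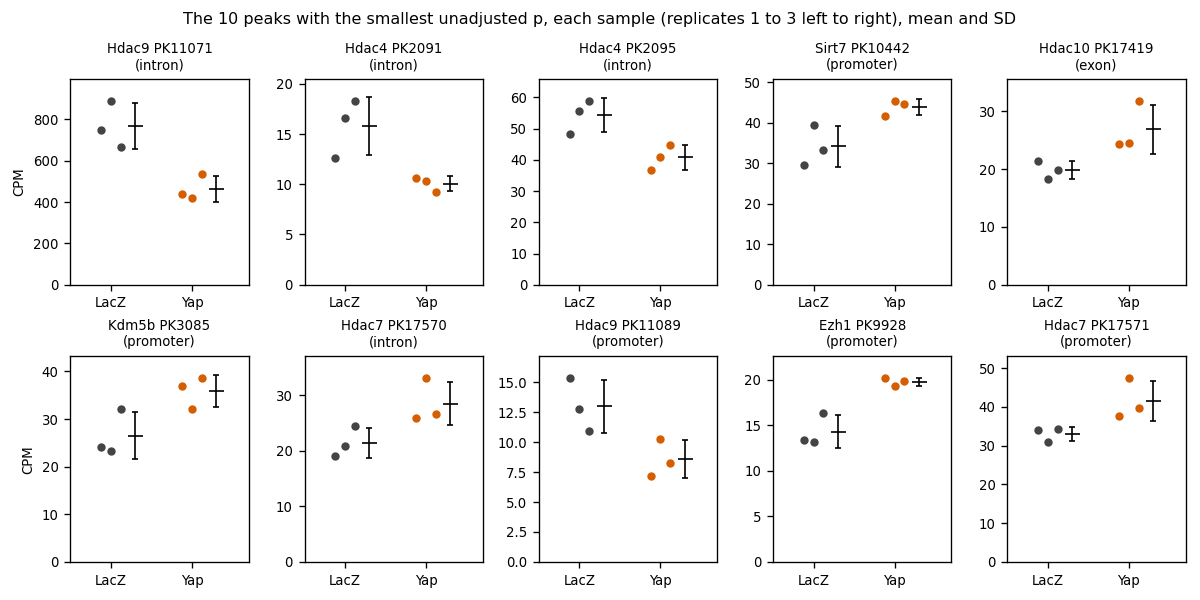
CPM of each sample at the 10 member peaks with the smallest unadjusted p (black, LacZ-shRNA; orange, Yap-shRNA; bar, mean and SD of 3 samples). The 4 lower peaks are in Hdac9 and Hdac4, and the 6 higher ones are at Sirt7, Kdm5b, Hdac7, Ezh1 and the end of Hdac10.

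Arid1b, a BAF subunit, held 15 gene-body peaks with fold changes from -0.32 to 0.41. The lowest by p-value, PK19215, held 27.9, 38.2 and 31.4 CPM in LacZ-shRNA and 22.7, 25.2 and 29.1 CPM in Yap-shRNA (-0.32, SE 0.15, edgeR adjusted p 0.490), with overlap. A promoter peak of Kdm2b, a CpG-binding demethylase, was at 0.33 (PK31627, SE 0.15, adjusted p 0.510). These peaks and PK11079 of Hdac9 are named because they complete the 13 with an unadjusted p under 0.05, and were chosen after their values were seen. The peaks of acetyltransferases (17) and class I deacetylases (5) included none past that threshold.

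A list of related genes was also examined, with other complex subunits, further methyltransferases and the MEF2 factors. Of the 96 listed, 95 had a window, 0 were called by edgeR (background 0.0223%), and at an unadjusted p under 0.05 there were 2 higher (background 1.9%) and 1 lower (background 3.01%). Bcl7c, a SWI/SNF subunit, held 8.14, 8.33 and 7.40 CPM in LacZ-shRNA and 13.04, 12.1 and 15.1 CPM in Yap-shRNA, without overlap (0.76, SE 0.19, edgeR adjusted p 0.504). Its window shares bases with another. Mef2b was at 0.39 (SE 0.18, adjusted p 0.946). Trrap, the scaffold of the Kat2a and Kat5 complexes, held 277.5, 435.8 and 311.6 CPM against 249.2, 246.3 and 283.4 CPM (-0.39, SE 0.16, adjusted p 0.946), and without LacZ-shRNA replicate 1 it was called (-0.52, adjusted p 0.00171), in a fit that called 157 windows in all against 11 with every sample. Over the 95 windows the median was 0.033, with 9 PRC2 genes at -0.0066 and 19 corepressor genes at 0.041.

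Across the alternatives the median change of the members followed the libraries and scaling that entered the fit. For member peaks it was -0.037 without LacZ-shRNA replicate 1, with 62 of 155 positive, and 0.161 with library size alone, where all peaks were at 0.137 and 124 of 155 member peaks were positive. Without LacZ-shRNA replicate 3 it was 0.069, and 20 member peaks were higher and 6 lower at an unadjusted p under 0.05, where 5.89% and 7.92% of all peaks were.

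**Figure D5:**
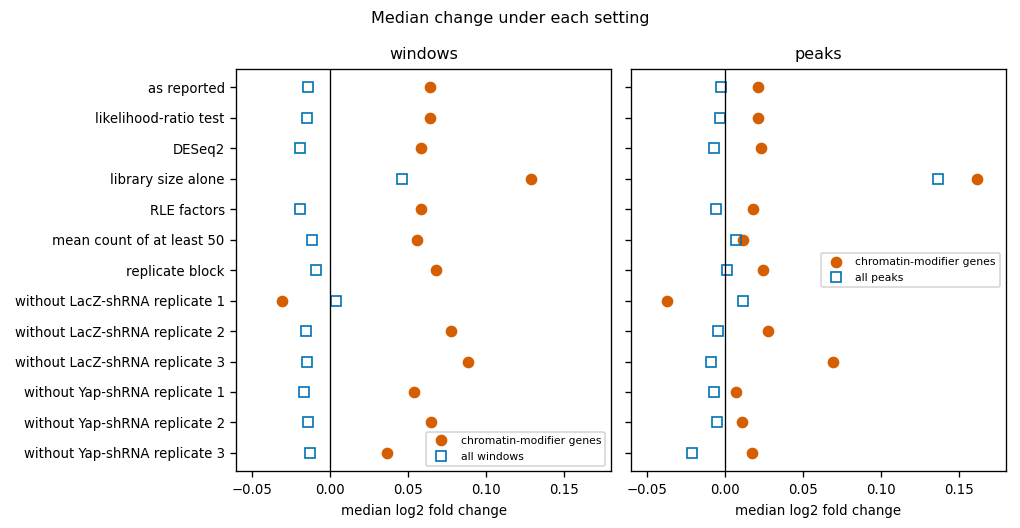
Median log2 fold change of the 66 member windows and the 155 member peaks (orange) and of all features (blue squares) under each setting of the analysis. Only leaving out LacZ-shRNA replicate 1 gives negative medians for the members, -0.031 for windows and -0.037 for peaks.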

How the data were processed

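ATAC-seq of PCM1-sorted myonuclei gave 6 samples. The authors mapped reads to GRCm38 with BWA 0.7.17, took out duplicates (SAMtools 1.8), made a peak set from MACS 1.4.2-1 calls seen in at least 2 samples, and counted reads by featureCounts 1.5.0. The deposited values are whole-number read counts per window and per peak, filtered by the authors to a mean of at least 10. Depth is unequal, at 3326803 to 10319467 window counts per sample.

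All 49366 windows matched the Ensembl v96 annotation. Counts were compared with edgeR 4.0.16 in R 4.3.3 (quasi-likelihood test, TMM factors, no covariate, Benjamini-Hochberg adjustment over all windows or all peaks, threshold 0.05). Levels are TMM-normalised CPM. Of member windows with a peak inside, 26 of 26 that overlap no other window and 16 of 22 (72.7%) that do held at least 0.95 of its counts. The tests were run on simulated data first. DESeq2 1.42.0, other scalings, a mean count of 50, a replicate block and leaving out samples were alternatives.

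The members and lists were chosen with earlier results of these data known. Genes named in the text are, in each role, the 3 with the smallest window p and the highest and lowest level, 16 genes set by name, the 10 peaks with the smallest p and 3 partners. Replicates of a group differed by more than counting error, the chi-square per window being 1.95 or more.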

Additional observations from a re-analysis of the deposited data

How the results depend on the processing

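In the 37 named windows and 10 named peaks, 535 of the comparisons with an alternative kept direction and side of the threshold, 26 changed sign, and 3 moved a value past the threshold, all of them for Hdac9 PK11071 (-0.73 by the likelihood-ratio test, -0.73 by DESeq2, -0.82 without LacZ-shRNA replicate 3). Its adjusted p was 0.053 to 0.612 under the other alternatives, and -0.58 was its smallest change, with library size alone. No member window was called under any alternative run. Windows with an unadjusted p under 0.05 numbered 0 by DESeq2 (against 2.62% of all windows) and 5 with library size alone (against 6.01%). With 1 sample left out they numbered 0 to 5 (against 2.23% to 9.17%). Windows without overlap of the groups numbered 13 with library size alone, a scaling that moved the median of all windows to 0.046. The share over all windows is not given for that scaling, so the 13 cannot be read as particular to the members. Member peaks called numbered 1 by the likelihood-ratio test (against 1.05% of all peaks) and 1 by DESeq2 (against 0.327%). With 1 sample left out they numbered 0 to 1 (against 0.26% to 1.24%). Peaks with an unadjusted p under 0.05 numbered 26 with library size alone (against 13.3% of all 36097 peaks) and 10 to 26 with 1 sample left out, the highest without LacZ-shRNA replicate 3 (against 13.8% of all 36097 peaks). The median of member peaks was 0.16 with library size alone. Without division by width, the median level of member windows was 61.0 CPM. Partner windows called numbered 0 to 1 with 1 sample left out (against 0.0081% to 0.318% of all windows). Sign changes with library size alone were Hdac2 (0.014), Kdm4b (0.048), Sirt4 (0.0075) and Sirt1 (0.020). With 1 sample left out, fold changes ran from -0.16 to 0.030 for Smarcd3, -0.044 to 0.10 for Kat2b, -0.027 to 0.22 for Hdac5, -0.013 to 0.14 for Hdac6, -0.025 to 0.21 for Hdac10, -0.034 to 0.14 for Hdac8, -0.042 to 0.15 for Hdac1, -0.20 to 0.037 for Hdac2, -0.086 to 0.11 for Kdm1a, -0.14 to 0.066 for Kdm4b, -0.023 to 0.18 for Ezh2, -0.065 to 0.30 for Sirt7, -0.13 to 0.025 for Sirt4 and -0.15 to 0.028 for Sirt1. The causes were not tested. The adjusted p of DESeq2 was missing for 7 member windows and 25 member peaks.

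Replicate numbers are shared by the groups, but same-numbered samples did not deviate together, with correlations of 0.191, -0.121 and 0.0923 over windows and 0.0155, -0.0931 and -0.139 over peaks. A replicate block gave 0 called member windows and 0 called member peaks, with medians of 0.068 and 0.025. With SEs of 0.13 to 0.21 for windows and 0.12 to 0.46 for peaks, changes of about that size were not detectable. Changes several times the SE could also miss the threshold, as at the Bcl7c window (0.76, SE 0.19, edgeR adjusted p 0.504). Sizeable changes at these genes are therefore not excluded.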
